A study of Homo sapiens with 6 samples.

Results

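The genes described here are those whose start lies within 5 Mb of the start of the transcript of HKlincR1, a long intergenic noncoding RNA on the short arm of human chromosome 4. On the GRCh37 build the window runs from position 1675178 to position 11675178. In the GENCODE v44 annotation it holds 159 protein-coding and lncRNA genes, of which 134 have a row in the deposited expression values. HKlincR1 itself and 1 RNF gene were left out, which leaves 132 of the 57773 genes listed. Of these, 95 are protein-coding and 37 are lncRNA genes, with 65 on the telomeric side of HKlincR1 and 67 on the centromeric side. Position and gene type set the membership, and the rule uses no expression value.

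All 6 libraries came from H460, an established line of human non-small-cell lung cancer. The 3 control libraries (siNT) received an ON-TARGETplus non-targeting siRNA and the 3 knockdown libraries (siHKlincR1) received a single siRNA against HKlincR1, siHKlincR1_2. Both groups were transfected at 50 nM with a lipid reagent and collected after 48 hours, and the polyA RNA of 3 biological replicates per group was sequenced with a strand-specific kit. The comparison therefore rests on 1 cell line, 1 siRNA and 1 time point.

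Some long noncoding RNAs act in cis, that is, on genes near the place where they are transcribed, by holding a chromatin regulator at the locus, by contact between an enhancer and a promoter, or through the act of transcription itself. Others leave the locus and act on genes elsewhere. An siRNA acts on the finished transcript, mostly after transcription, so it lowers the RNA and need not stop transcription of the locus. The question put to the neighbours was whether their expression differed after the knockdown, and whether any difference followed their distance from HKlincR1.

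An siRNA can also lower other transcripts whose 3′ UTR pairs with its seed, the bases 2 to 8 of the guide strand. The target strand of siHKlincR1_2 matched exon 2 of HKlincR1 at chr4:6677040-6677058 on the plus strand. The target and guide strands are shown 5′ to 3′ because they define the knockdown, and capitals mark the seed of the guide and the bases of the target that pair with it.
siHKlincR1_2 target strand: gaaguauacucGUGUGCUu
siHKlincR1_2 guide strand: aAGCACACgaguauacuuc

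Among the 43 tested neighbours with an annotated 3′ UTR, 6 held at least 1 match to the seed, which is 14.0%. The share among the 10721 other tested genes with a 3′ UTR was also 14.0%. Only matches to this seed in 3′ UTRs were scanned. The control siRNA was not scanned, as its sequence is not given in the sources used here. With 1 siRNA against HKlincR1, effects of the siRNA itself and of the loss of HKlincR1 cannot be told apart for any neighbour. The 7 matches are given 5′ to 3′ on the strand of the gene, with the GRCh37 position of the 7 capital letters.
LETM1, chr4:1813342-1813348, minus strand: tggcaggaGTGTGCTggtgagcc
ADD1, chr4:2930415-2930421, plus strand: gacccagtGTGTGCTcagcagcc
ADD1, chr4:2931221-2931227, plus strand: cctgaaccGTGTGCTcctcggca
HTT, chr4:3244053-3244059, plus strand: acctgcctGTGTGCTccggagat
LRPAP1, chr4:3513974-3513980, minus strand: gtccctaaGTGTGCTgtgtaaat
KIAA0232, chr4:6883247-6883253, plus strand: ccgcagagGTGTGCTtttcaaga
TBC1D14, chr4:7033122-7033128, plus strand: tttagaacGTGTGCTtcatgacc

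HKlincR1 was listed at 3.62, 3.47 and 3.83 RPKM (reads scaled by gene length and library size) in the siNT libraries and at 0.563, 0.628 and 0.390 RPKM in the siHKlincR1 libraries. It fell by 2.59 on the log2 scale (SE 0.17, limma with Benjamini-Hochberg adjustment, adjusted p = 0.00245), a mean reduction of 85.5%. Its change was larger in size than that of each of the 44 neighbours tested. The library totals worked back from the RPKM values were between 24980280 and 30521000 reads. The epithelial keratins KRT8, KRT18 and KRT19 were expressed at 28.1 RPKM or more in every library, while EPCAM did not exceed 0.110 RPKM and CDH1 did not exceed 0.00543 RPKM. Among the marker genes fixed for stromal, endothelial and immune cells, DCN, VWF, CDH5, PTPRC, CD3E and CD68 did not exceed 0.126 RPKM. The collagens COL1A1 (up to 1.23 RPKM) and COL3A1 (up to 21.1 RPKM) did. PECAM1, also fixed as an endothelial marker, was not evaluated.

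Not all genes of the window were expressed in these cells. Of the 132, 38 were listed at 0 in every library, namely 13 protein-coding and 25 lncRNA genes. The other 94 were above 0 in at least 1 library, against 31287 of all 57773 genes listed, which include other gene types. The window thus held no excess of genes at 0. A further 33 had at most 3 reads in each library, a level that was taken as the floor. Testing was limited to the 44 genes that averaged 0.5 RPKM or more across the 6 libraries, which were 43 protein-coding genes and 1 lncRNA gene, NOP14-AS1. These 44 genes had at least 40 reads in each library, and their mean levels ran from 0.557 RPKM to 53.5 RPKM with a median of 5.23 RPKM, against 5.05 RPKM for all 15451 genes tested. Expressed genes were unevenly placed, with 32 on the telomeric side and 12 on the centromeric side. The centromeric side holds a tandem array of 20 near-identical USP17L genes, and 1 defensin gene. None of these 21 genes was tested and none averaged more than 0.0223 RPKM. Reads from the USP17L copies cannot be assigned with certainty.

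**Figure D1:**
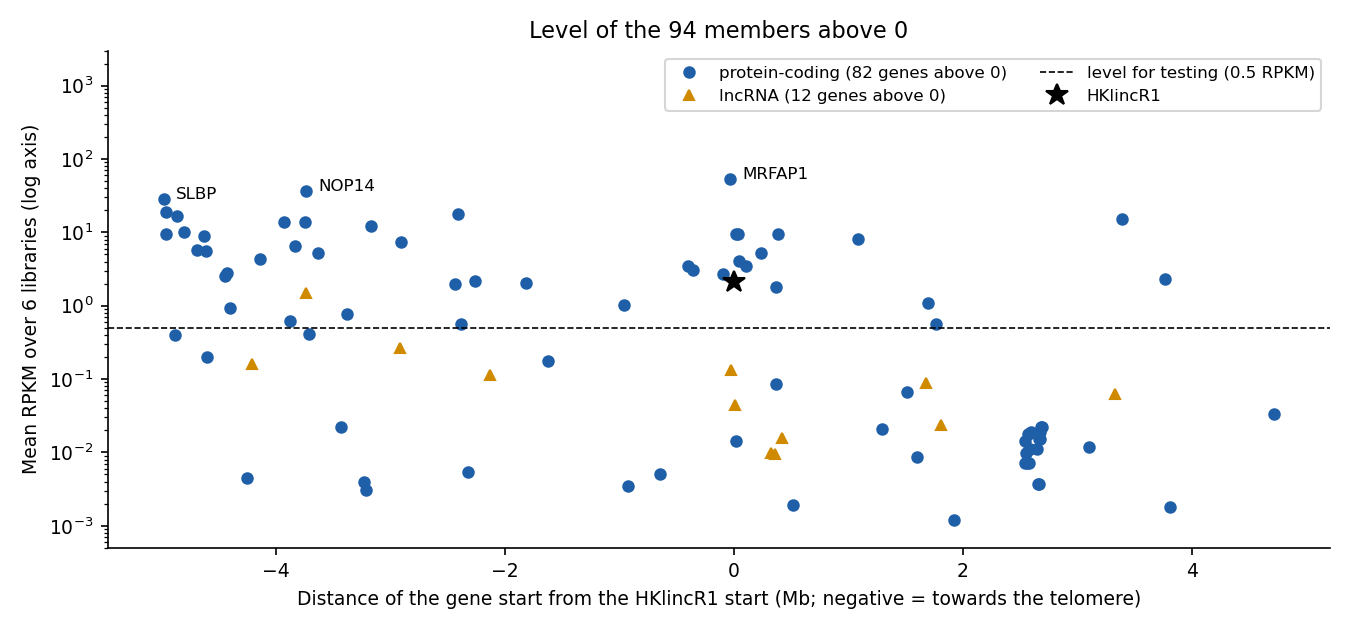
Mean RPKM over the 6 libraries (log axis) against the distance of the gene start from the start of HKlincR1 in Mb, for the 94 genes above 0, with protein-coding genes as circles, lncRNA genes as triangles and HKlincR1 as a star. The telomeric side holds 32 of the 44 genes above the 0.5 RPKM line, and the cluster of points below 0.03 RPKM on the centromeric side is the tandem array.

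The plot of level by distance shows HKlincR1 at a level close to that of several of its neighbours, with the most highly expressed gene of the window, MRFAP1, next to it. The plotted level of HKlincR1 includes the knockdown libraries. Its mean was 3.64 RPKM with siNT and 0.527 RPKM with siHKlincR1.

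The nearest genes were examined library by library. S100P, which encodes a small calcium-binding protein of the S100 family, starts 20.4 kb from HKlincR1 (chromosome 4, 6695605 to 6698897). It was listed at 8.25, 7.32 and 4.38 RPKM with siNT and at 13.3, 18.0 and 6.03 RPKM with siHKlincR1. The third siHKlincR1 library was below 2 of the siNT libraries, so the groups overlapped, although each siHKlincR1 library was above the siNT library of the same number. S100P had a log2 change of 0.81 (SE 0.41, 95% interval -0.16 to 1.77, limma with Benjamini-Hochberg adjustment, adjusted p = 0.362). When the replicate number entered the limma fit as a block, the adjusted p of S100P was 0.0681, above the threshold. S100P passed the test only when the third siHKlincR1 library was left out, with a log2 change of 1.25 and a limma adjusted p of 0.0480.

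BLOC1S4, a subunit of the complex that builds lysosome-related organelles, starts 42.7 kb away (6717901 to 6719391). Its levels were 3.89, 3.94 and 2.87 RPKM with siNT and 4.84, 4.76 and 4.13 RPKM with siHKlincR1. All siHKlincR1 libraries were above all siNT libraries. The log2 change was 0.36 (SE 0.14, 95% interval 0.03 to 0.69), and it did not pass the limma test over all genes (adjusted p = 0.289).

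MRFAP1 and MRFAP1L1 are paralogues that flank HKlincR1 and encode small proteins associated with the MORF4 family of chromatin factors. MRFAP1 (6641818 to 6644456, 33.4 kb on the telomeric side) was listed at 52.2, 52.9 and 60.2 RPKM with siNT and at 48.1, 48.1 and 59.5 RPKM with siHKlincR1. The groups overlapped, and the log2 change was -0.09 (95% interval -0.34 to 0.16). MRFAP1L1 (6709428 to 6711592, 34.2 kb on the centromeric side) was listed at 10.1, 9.29 and 10.2 RPKM with siNT and at 9.14, 8.45 and 9.21 RPKM with siHKlincR1. All siHKlincR1 libraries were below all siNT libraries, by a log2 change of -0.14 (95% interval -0.32 to 0.03, limma adjusted p = 0.373).

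Another 3 tested genes start within 250 kb. MAN2B2, an alpha-mannosidase of glycan breakdown (6576916 to 6625089), had 2.84, 2.86 and 2.82 RPKM with siNT and 2.48, 2.76 and 2.32 RPKM with siHKlincR1. The groups did not overlap, with a log2 change of -0.17 (95% interval -0.40 to 0.06). KIAA0232 (6783102 to 6885897) had 3.55, 3.74 and 3.23 RPKM with siNT and 3.10, 3.46 and 3.62 RPKM with siHKlincR1. Its groups overlapped, and the interval of its log2 change ran from -0.28 to 0.19. TBC1D14, a regulator of Rab GTPases and autophagy (6910969 to 7034845), had between 5.12 and 5.52 RPKM in all 6 libraries and an interval of -0.14 to 0.20. Of its exonic bases, 41.0% are shared with a lncRNA gene on the opposite strand, which averaged 0.00937 RPKM. Both KIAA0232 and TBC1D14 hold a match to the siRNA seed shown above.

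The closest lncRNA genes, LINC02482 and LINC02481, and the protein-coding gene AC093323.1 could not be tested. LINC02482 overlaps the start of HKlincR1 on the opposite strand (6650422 to 6675692), sharing 282 exonic bases with it, and had 1, 2 and 0 reads with siNT and 2, 0 and 5 reads with siHKlincR1. LINC02481 (6689175 to 6692271) had 4, 2 and 0 reads with siNT and 2, 5 and 1 with siHKlincR1. AC093323.1, annotated as protein-coding (6693782 to 6694189), had a single read in 1 siHKlincR1 library. A difference in these genes was not detectable at this depth.

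**Figure D2:**
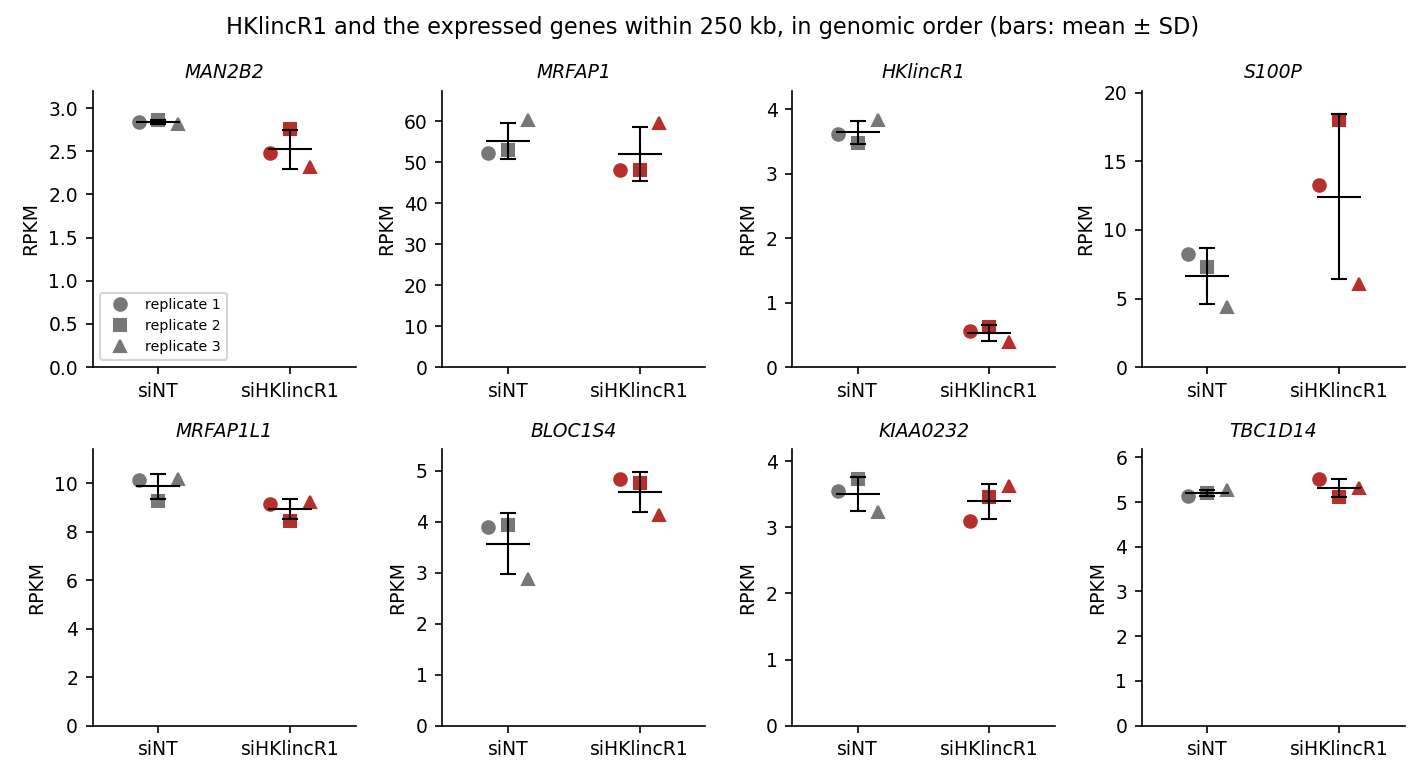
RPKM of HKlincR1 and of the 7 tested genes within 250 kb in each library, in genomic order, with siNT in grey, siHKlincR1 in red, a marker shape per replicate number and bars for the mean ± SD of 3 libraries. Only the HKlincR1 panel shows a difference that passed the test, and the S100P panel shows the 3 siHKlincR1 libraries spread from 6.03 to 18.0 RPKM.

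Read by replicate number, the third library was the lowest of its own group for S100P, BLOC1S4 and MAN2B2, with siNT and with siHKlincR1 alike. It was the highest of both groups for MRFAP1 and MRFAP1L1. For KIAA0232 it was the lowest with siNT and the highest with siHKlincR1.

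Over the whole window, none of the 44 tested genes passed the test, which was a limma fit over all 15451 genes with a Benjamini-Hochberg adjusted p under 0.05 and a fold above 1.5. The percentage called over all genes was 0.362%, so a count of 0 among 44 lies near the background. None of the 44 was called with the replicate number as a block, where 1.32% of all genes were called, or by limma-voom on the reads worked back, where 0.576% were called. Nor did a neighbour reach an adjusted p under 0.05 whatever its fold, where 0.453% of all genes did so in the first fit, 2.93% with the block and 0.932% with voom. At an unadjusted p under 0.05, limma gave 9 of the 44 (20.5%) against 16.2% of all genes, the blocked fit 17 (38.6%) against 26.3%, and voom 9 (20.5%) against 17.3%. The lowest adjusted p among the neighbours was 0.174 in the limma fit (ADD1), 0.0681 with the block (S100P) and 0.106 with voom (ADD1).

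The sizes of the differences were close to those elsewhere. The neighbours divided into 22 with a lower and 22 with a higher mean after the knockdown, that is 50.0% lower, against 49.8% of all tested genes. Their median log2 change was -0.01 with quartiles of -0.14 and 0.15, against a median of 0.02 for the 539 other tested genes of chromosome 4. The median absolute log2 change was 0.15 for the neighbours and 0.14 for the other genes of the chromosome. A fold above 1.5 was seen in 1 tested neighbour, S100P, against 5.42% of all tested genes. FGFR3, which the level filter left out, is described below. For 34 of the 44 neighbours the 95% interval lay wholly within a fold of 1.5 in both directions, and for the other 10 it reached that fold.

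**Figure D3:**
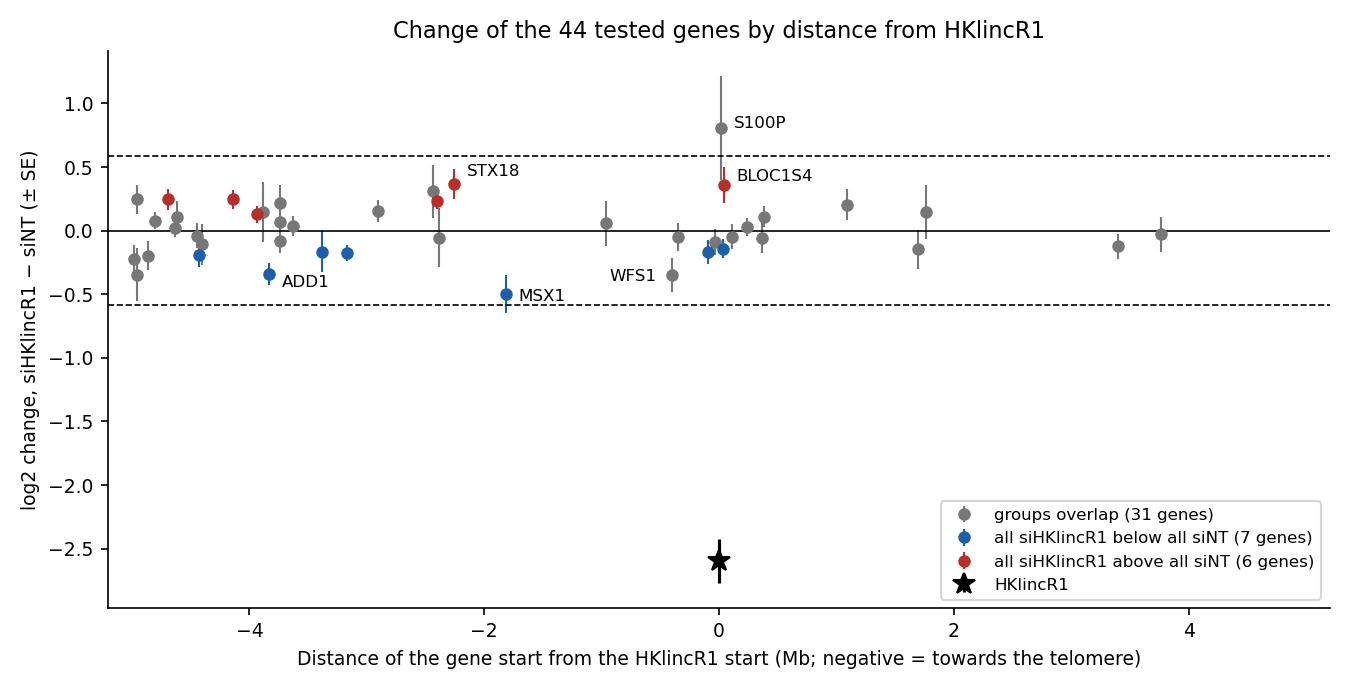
Log2 change (siHKlincR1 minus siNT, ± SE) of the 44 tested genes against distance from HKlincR1 in Mb, with broken lines at a fold of 1.5, HKlincR1 as a star, and the 7 genes with all siHKlincR1 libraries below all siNT libraries in blue, the 6 with the reverse in red and the 31 with overlapping groups in grey. Points lie on both sides of 0 near to and far from HKlincR1, S100P is the point above the upper line, and none of the 44 passed the test.

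The change was then set against distance. The 7 genes closer than 0.25 Mb had a median log2 change of -0.05 and the 5 between 0.25 and 1 Mb also had -0.05. The 8 between 1 and 2.5 Mb had 0.18 and the 24 between 2.5 and 5 Mb had -0.01. The 2 sides of HKlincR1 had medians of -0.01 (32 telomeric genes) and 0.00 (12 centromeric genes), with equal numbers of lower and higher genes on each. Across the 44 genes, which share libraries and are not independent replicates, the Spearman correlation of the change with distance was -0.074 and the Pearson correlation -0.115. The Spearman correlation of the absolute change with distance was 0.033. Taken library by library against the siNT mean, the Spearman correlation was -0.080, -0.044 and 0.0023 in the siHKlincR1 libraries. By side, the Spearman correlation of the change with distance was 0.033 over the 32 telomeric genes and -0.273 over the 12 centromeric genes, where the Pearson correlation was -0.362 and the Spearman correlation of the absolute change was -0.329. The 12 centromeric genes include S100P and BLOC1S4, which lie closest to HKlincR1 on that side together with MRFAP1L1.

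In 13 of the 44 neighbours (29.5%) the groups did not overlap, against 22.0% of all tested genes, and none of the 13 passed the limma test. They were lower after the knockdown in 7 neighbours, against 11.9% of all genes, and higher in 6, against 10.1%. Among the 7 were MSX1, ADD1, MXD4, LRPAP1 and RGS12, besides MAN2B2 and MRFAP1L1. Among the 6 were STX18, FAM193A, NELFA, LYAR and TNIP2, besides BLOC1S4. With 3 libraries against 3, an exact two-sided permutation test gives p = 0.10 for each of these genes, the smallest p that it can give.

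ADD1 encodes alpha-adducin, which caps actin filaments and joins them to spectrin (2845571 to 2931803). It was listed at 7.00, 7.68 and 7.54 RPKM with siNT and at 5.70, 5.44 and 6.35 RPKM with siHKlincR1. The means differed by -21.3%, a log2 change of -0.34 (SE 0.09, 95% interval -0.54 to -0.14, limma adjusted p = 0.174). Without the third siHKlincR1 library the log2 change of ADD1 was -0.40 with a limma adjusted p of 0.0385, at a fold under the 1.5 needed for a call. ADD1 is the neighbour with 2 seed matches in its 3′ UTR. The part of these matches in the difference was not tested.

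MSX1, a homeobox transcription factor of craniofacial development (4861392 to 4865663), was listed at 2.52, 2.06 and 2.76 RPKM with siNT and at 1.89, 1.75 and 1.45 RPKM with siHKlincR1. Its log2 change of -0.50 (SE 0.15, 95% interval -0.85 to -0.15, limma adjusted p = 0.222) was the lowest among the 44, and its 3′ UTR held no seed match. STX18, a SNARE protein of transport between the Golgi and the endoplasmic reticulum (4417469 to 4544073), was listed at 1.97, 1.73 and 2.01 RPKM with siNT and at 2.42, 2.79 and 2.26 RPKM with siHKlincR1. The groups were separate, with a log2 change of 0.36 (SE 0.12, 95% interval 0.08 to 0.65, limma adjusted p = 0.242). LRPAP1, a chaperone of receptors of the LDL receptor family (3505339 to 3534173), had 13.1, 12.9 and 13.2 RPKM with siNT and 11.3, 11.4 and 11.9 RPKM with siHKlincR1, a log2 change of -0.18 (limma adjusted p = 0.259). LRPAP1 carries 1 of the seed matches.

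**Figure D4:**
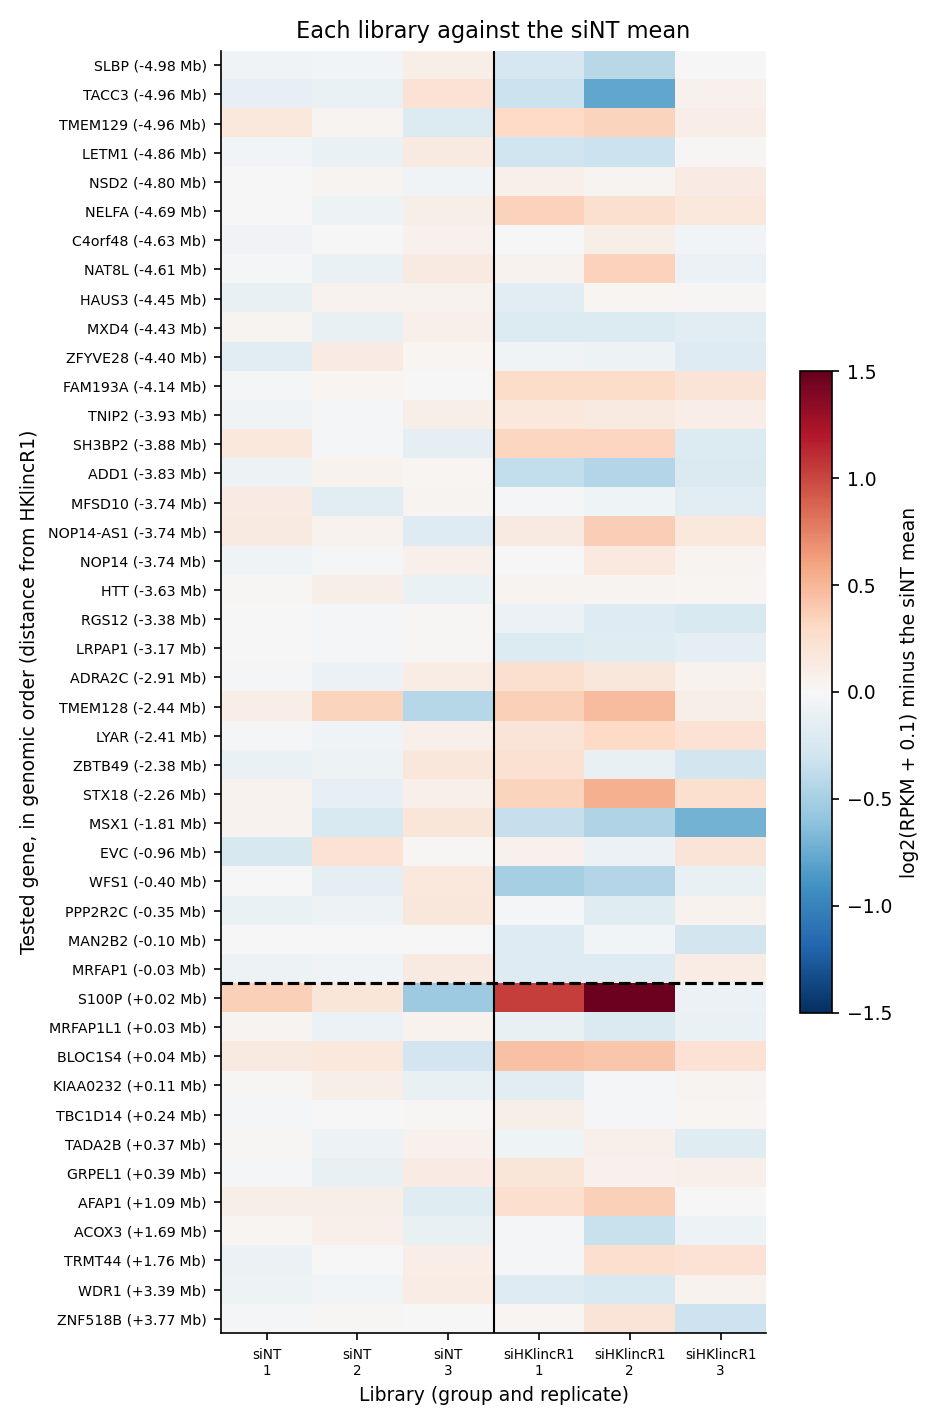
Difference of log2(RPKM + 0.1) from the siNT mean for each of the 44 tested genes (in genomic order) in each of the 6 libraries, as a colour scale. S100P is the gene with the strongest colour, in the second siHKlincR1 library, and most other genes stay pale in all libraries.

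The map of deviations by library shows differences among libraries of the same group as well as between groups. The median deviation of the 44 genes was -0.02, -0.03 and 0.08 in the siNT libraries, each set against the other siNT libraries, and 0.01, 0.03 and 0.03 in the siHKlincR1 libraries, set against the siNT mean. Of the 44, 21, 21 and 19 were below the siNT mean in siHKlincR1 libraries 1, 2 and 3. The median absolute deviation was 0.188, 0.210 and 0.112 in these libraries, against 0.180, 0.211 and 0.121 over all tested genes, so the third knockdown library lay nearest to the controls both in the window and outside it. Paired by replicate number, 11 of the 44 genes were higher in 3 of 3 pairs, against 24.0% of all tested genes, 14 were lower in 3 of 3 pairs, against 25.2%, and 19 were mixed.

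The neighbours were then grouped by role. None passed the test in any group. In the group of cell division and genome copying, the 3 tested genes had lower means, with a median log2 change of -0.23. TACC3, a protein of the mitotic spindle (1714585 to 1746898), was listed at 19.0, 19.3 and 24.0 RPKM with siNT and at 16.5, 12.0 and 21.5 RPKM with siHKlincR1. The groups overlapped, each siHKlincR1 library was below the siNT library of its number, and the log2 change was -0.35 (SE 0.21, limma adjusted p = 0.425). SLBP, which binds the stem-loop of histone messenger RNA (1694458 to 1714071), had 29.2, 29.7 and 32.5 RPKM with siNT and 25.5, 22.9 and 30.2 RPKM with siHKlincR1, a log2 change of -0.23 (SE 0.11, limma adjusted p = 0.345). HAUS3, a subunit of the augmin complex of spindle microtubules, had a log2 change of -0.04 (95% interval -0.28 to 0.20). SLBP and TACC3 start 514 bp apart on opposite strands. In all, 4 such pairs within 1000 bp had both genes tested. NELFA (log2 change 0.24) and C4orf48 (0.02) were both higher. LYAR (0.23) and ZBTB49 (-0.06) differed in direction, as did MFSD10 (-0.08) and NOP14-AS1 (0.22).

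Of the 8 tested genes of chromatin and transcription, 6 had lower and 2 had higher means, with a median of -0.05. NELFA, a subunit of the complex that pauses RNA polymerase II (1984444 to 2043630), was listed at 5.25, 4.99 and 5.58 RPKM with siNT and at 6.70, 6.22 and 5.88 RPKM with siHKlincR1. The groups were separate, with a log2 change of 0.24 (SE 0.08, limma adjusted p = 0.256). MXD4, a partner of MAX that opposes MYC, had 3.07, 2.73 and 3.13 RPKM with siNT and 2.57, 2.57 and 2.62 RPKM with siHKlincR1, a log2 change of -0.19 (limma adjusted p = 0.340). NSD2, a histone H3 lysine methyltransferase, had a log2 change of 0.08 (95% interval -0.07 to 0.23).

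The 3 tested genes of the nucleolus and RNA modification had higher means, with a median of 0.15. LYAR, a nucleolar zinc-finger protein (4269428 to 4291881), was listed at 16.1, 15.7 and 17.1 RPKM with siNT and at 18.7, 20.0 and 18.9 RPKM with siHKlincR1. No library of one group reached the other, and the log2 change was 0.23 (SE 0.07, 95% interval 0.08 to 0.39, limma adjusted p = 0.206). NOP14, a factor of small ribosomal subunit assembly, had a log2 change of 0.07. TRMT44, a transfer RNA methyltransferase, had 0.15 with an interval of -0.35 to 0.64. NOP14 shares 737 exonic bases with NOP14-AS1 on the opposite strand, which had a log2 change of 0.22 (limma adjusted p = 0.458). How strand was used in the counting is not given in the sources used here, so the reads of this pair cannot be told apart with certainty. In all, 11 tested neighbours share exonic bases with a gene on the opposite strand.

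Among the 9 tested genes of vesicle traffic, the lysosome and the endoplasmic reticulum, 3 had lower and 6 had higher means, with a median of 0.04. Besides STX18, BLOC1S4, LRPAP1, MAN2B2 and TBC1D14, described above, the group holds TMEM129, an ubiquitin ligase of the endoplasmic reticulum, with 9.68, 8.88 and 7.49 RPKM in siNT libraries and 10.7, 10.9 and 9.26 RPKM in siHKlincR1 libraries. Its groups overlapped, and its log2 change was 0.25 (limma adjusted p = 0.336). WFS1, a membrane protein of the endoplasmic reticulum chosen after its values were seen, had 3.82, 3.48 and 4.29 RPKM with siNT and 2.70, 2.81 and 3.56 RPKM with siHKlincR1, a log2 change of -0.35 with overlapping groups (limma adjusted p = 0.284). Among the 5 genes of the mitochondrion, peroxisome and metabolite transport, 3 had lower means, with a median of -0.08. LETM1, an ion exchanger of the inner mitochondrial membrane with a seed match, had -0.20 (limma adjusted p = 0.406), GRPEL1, a cofactor of mitochondrial HSP70, had 0.11, and the transporter MFSD10 had -0.08.

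The groups of the cytoskeleton, growth factor and kinase signalling, and G protein receptors had members on both sides of 0. In the cytoskeleton group, WDR1, a cofactor of actin disassembly, had a log2 change of -0.12 (95% interval -0.35 to 0.11). AFAP1, an actin filament-associated partner of SRC, had 0.20 (limma adjusted p = 0.417), and 51.3% of its exonic bases are shared with AFAP1-AS1 on the opposite strand, which is listed at 0. In growth factor and kinase signalling, TNIP2, a binding partner of the inflammation inhibitor A20, had 0.13 with separate groups (limma adjusted p = 0.369). The phosphatase subunit PPP2R2C had -0.05 and the endosomal protein ZFYVE28 had -0.11. ADRA2C, an adrenergic receptor, had 0.16, RGS12, which speeds the inactivation of G proteins, had -0.17, and EVC, a ciliary protein of hedgehog signalling, had 0.06. FAM193A, in no group, was listed at 3.90, 4.06 and 3.95 RPKM with siNT and at 4.83, 4.83 and 4.54 RPKM with siHKlincR1. Its groups were separate, with a log2 change of 0.25 (SE 0.07, limma adjusted p = 0.218).

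**Figure D5:**
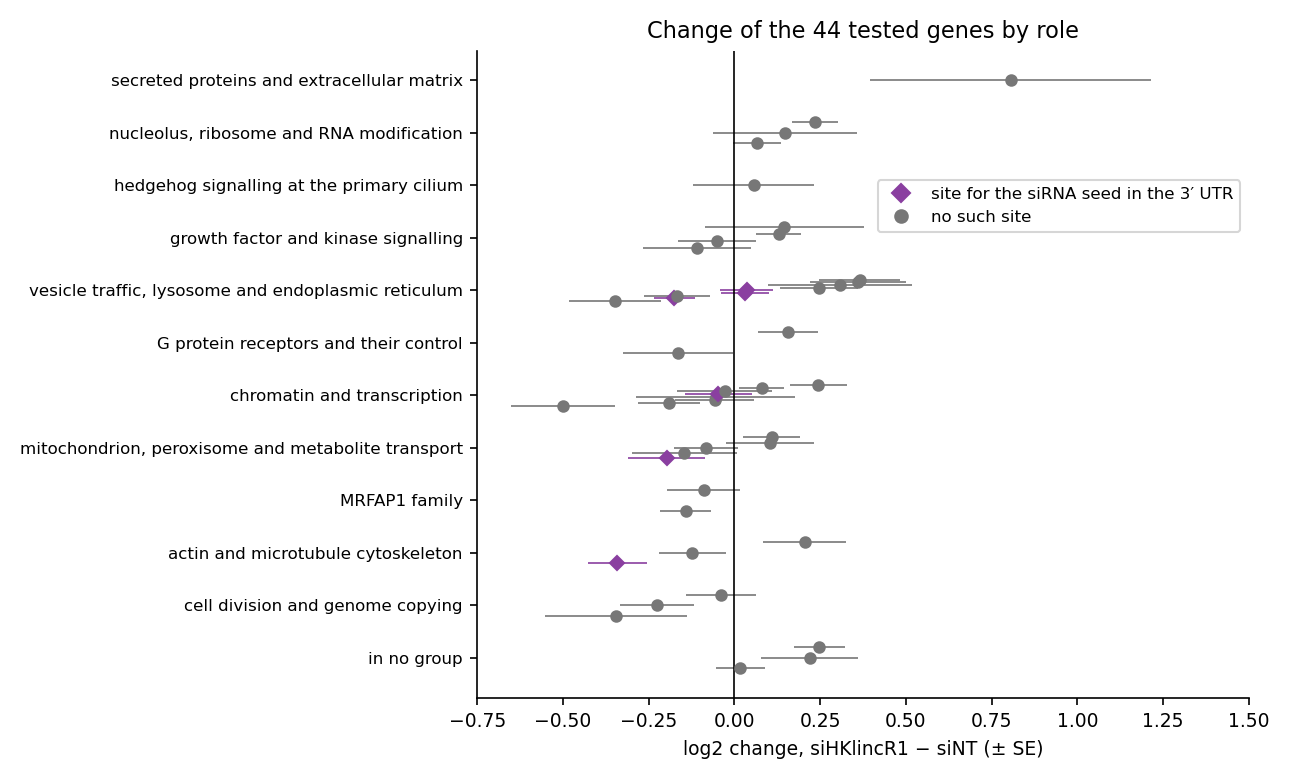
Log2 change (siHKlincR1 minus siNT, ± SE) of the 44 tested genes, 1 point a gene, grouped by role, with purple diamonds for genes whose 3′ UTR holds a match to the siRNA seed and grey circles for the others. The 3 genes of cell division lie below 0 and the 3 of the nucleolus above it, with no gene past the test in either group.

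The plot by role marks the 6 neighbours with a seed match, and 4 of them had lower means. Their median log2 change was -0.11, against 0.02 for the 37 neighbours with a 3′ UTR and no match, of which 18 had lower means. Over the other tested genes the medians were -0.08 for the 1506 with a match and -0.01 for the 9215 without. The difference between neighbours with and without a match thus had the same sign as that outside the window, and with 6 genes it was not tested.

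Of the genes too low for the test, FGFR3, a receptor tyrosine kinase for fibroblast growth factors (1795020 to 1810599), was chosen after its values were seen. It had 81, 68 and 67 reads with siNT and 34, 31 and 43 reads with siHKlincR1, or 0.604, 0.461 and 0.555 RPKM against 0.247, 0.222 and 0.297 RPKM. The groups did not overlap, and the means differed by -52.7%. In a limma fit of all 31287 genes above 0, its log2 change was -0.85 (SE 0.22, Benjamini-Hochberg adjusted p = 0.313). Its 3′ UTR held no seed match. STX18-AS1, which starts beside STX18 on the opposite strand and was also chosen after its values were seen, had 12, 11 and 15 reads with siNT and 23, 39 and 18 reads with siHKlincR1. In the same limma fit its log2 change was 0.49 (SE 0.24, Benjamini-Hochberg adjusted p = 0.517). It shares 187 exonic bases with STX18, so the reads of this pair cannot be told apart with certainty.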

How the data were processed

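RNA-seq was analysed from 3 siNT and 3 siHKlincR1 libraries of H460 cells. The authors counted reads per gene on Ensembl gene models and deposited RPKM values on GRCh37 (hg19). CASAVA 1.8.2 and featureCounts are listed in the submitters' processing notes, and the aligner and the use of strand are not given in the sources used here.

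The RPKM values are not counts and were tested as log2(RPKM + 0.1) with limma 3.58.1 in R 4.3.3 (eBayes, trend option on) for the 15451 genes that averaged 0.5 RPKM or more. This scale understates changes of low genes. A gene was called at a Benjamini-Hochberg adjusted p under 0.05 and a fold above 1.5. As the values were unrounded, whole reads could be worked back for 31285 of the 31287 genes above 0 (tolerance 1e-04), although the reads of low genes are a lower limit where all libraries share a common divisor. Library totals gave the depth, and floors cover counting error only. The steps were tested on simulated data. Positions, gene types and 3′ UTRs (canonical transcript, at least 30 nt) were taken from GENCODE v44 on GRCh37, in which 55538 identifiers were found.

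The members, role groups and lists were chosen with earlier results of these data known. Named were all genes starting within 250 kb, up to 6 genes in each direction with the largest change among those with separate groups, up to 3 tested genes with the highest mean RPKM in each role group, and the tested lncRNA gene. Other genes are named for a seed match, or after their values were seen. Over all tested genes, same-numbered libraries deviated together (correlations of 0.137 to 0.266, against -0.209 to 0.113 for libraries of different number). The replicate numbers in the titles were therefore used as a block in a second fit. Over the tested neighbours the ranges overlapped, at 0.289 to 0.624 for the same number and -0.690 to 0.649 for different numbers.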

Additional observations from a re-analysis of the deposited data

How the results depend on the processing

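The count of all genes called was 56, and it was 17 without the variance trend, 204 with the replicate block and 89 with voom on the reads. Leaving out each library in turn gave 7 to 518 genes, namely 8, 18 and 518 without siHKlincR1 replicates 1, 2 and 3, and 7, 7 and 14 without siNT replicates 1, 2 and 3. The count of neighbours called was 0 in these fits except without siHKlincR1 replicate 3, where it was 1 (S100P, while ADD1 passed the adjusted p but not the fold), so the range over left-out libraries was 0 to 1. The replicate block changed no call among the neighbours. Their median log2 change was 0.017 with a minimum of 1 RPKM and 0.072 with no filter (94 genes), and -0.027 to 0.034 when each library was left out. The rank correlation with distance was -0.156 with no filter. The fall of HKlincR1 passed the test under each alternative run. Over 34 named neighbours and 14 alternatives, 466 of 473 values kept their direction and their side of the threshold. The minimum of 1 RPKM, no filter, no variance trend and the replicate block leave each gene's log2 change as it was by design. In these fits only the side of the threshold could change, so their unchanged directions are no sign of stability. Only left-out libraries turned a direction, in 4 genes that were never called. KIAA0232 ranged from -0.103 to 0.015, HAUS3 from -0.0936 to 0.019, PPP2R2C from -0.101 to 0.037 (0.0146 without siHKlincR1 replicate 2), and EVC from -0.0629 to 0.166 (-0.0112 without siHKlincR1 replicate 3). The cause was not tested. With 3 libraries per group the 95% intervals had a median half-width of 0.26 on the log2 scale.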
